A study of Mus musculus with 24 samples.

Results

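Expression of 10 genes of MHC class II presentation and T cell costimulation was measured in 24 RNA-seq libraries of mouse cells. The genes were chosen by symbol and are H2-Aa, H2-Ab1, H2-Eb1, Cd74, Ciita, H2-DMa, H2-DMb1, Cd80, Cd86 and Cd274, which is 10 of the 23420 gene symbols counted in each library. All 10 were found, and all 10 were tested in each DESeq2 comparison. The libraries fell into 10 groups of Th2 cells and bone marrow-derived macrophages (BMDMs) from mice that had lost either the DNA glycosylase TDG or the dioxygenases TET1, TET2 and TET3, and from their WT controls.

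MHC class II molecules present peptides from the endosomal pathway to CD4 T cells. H2-Aa encodes an alpha chain, and H2-Ab1 and H2-Eb1 encode beta chains. Alpha and beta chains assemble in the endoplasmic reticulum with the invariant chain, the product of Cd74. The invariant chain fills the groove and directs the complex to endosomes. There the invariant chain is cut down by cathepsins, and the H2-DM heterodimer (H2-DMa and H2-DMb1) releases the remaining fragment so that a peptide can bind. Ciita encodes the class II transactivator, a coactivator that binds no DNA itself and is recruited by the factors on the S, X and Y boxes of class II promoters. CD80 and CD86 are ligands of CD28 and CTLA-4, and CD274 (PD-L1) is a ligand of the inhibitory receptor PD-1. In mouse macrophages the class II genes are best known as targets of interferon gamma through Ciita, whereas Cd86 and Cd274 also respond to Toll-like receptor agonists.

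All mice were of the C57BL/6 background and 8 to 16 weeks old. TDG iKO mice carried floxed Tdg and TET iTKO mice carried floxed Tet1, Tet2 and Tet3. Deletion was by a tamoxifen-activated Cre, and tamoxifen was given to Cre mice and control mice alike. Rosa26 reporter alleles with a floxed stop cassette (EYFP, or H2B-EGFP/GPI-mCherry) marked the cells in which Cre had acted. Th2 cells were sorted naive CD4 T cells of the spleen and lymph nodes, activated through CD3 and CD28 with IL-4 and an antibody to interferon gamma and then expanded in IL-2, and were sequenced as 4 WT and 4 TDG iKO libraries. BMDMs were grown from bone marrow with M-CSF and then left unstimulated (0 h) or given Kdo2-lipid A (KLA), a Toll-like receptor 4 agonist, for 6 h. A Tdg cohort held TDG iKO and WT cells, and a separate Tet cohort held TET iTKO cells with WT cells of their own, at 2 libraries for each genotype and time. TET iTKO Th2 cells were not analysed here.

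The promoters of 3 of the genes are shown because they carry the class II boxes through which Ciita acts. In the main test of TET iTKO BMDMs below, H2-Aa was called lower, and H2-Eb1 and H2-DMb1 were not called. The estimate for H2-Eb1 was near that for H2-Aa (log2 fold change at 0 h -1.08 and -1.17), and that for H2-DMb1 was 0.19. Capitals mark GNAAC, the core of the X box, and ATTGG, the Y box. Sequences are from RefSeq on GRCm38.p6, read 5′ to 3′ on the strand of the gene, at chr17:34287847-34287934 for H2-Aa (minus strand), chr17:34305746-34305832 for H2-Eb1 (plus strand) and chr17:34153067-34153154 for H2-DMb1 (plus strand).
H2-Aa: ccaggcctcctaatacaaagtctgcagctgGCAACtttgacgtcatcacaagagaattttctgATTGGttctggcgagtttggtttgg
H2-Eb1: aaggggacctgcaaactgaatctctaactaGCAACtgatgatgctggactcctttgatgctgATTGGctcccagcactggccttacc
H2-DMb1: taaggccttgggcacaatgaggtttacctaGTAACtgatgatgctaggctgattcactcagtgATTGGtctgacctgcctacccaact
The motif searched was GNAAC, then 27 or 28 bases of any kind, then ATTGG, on both strands. The spacer was 28 bases in H2-Aa and H2-DMb1 and 27 in H2-Eb1, and the motif began 81, 94 and 91 bases before the annotated start in that order. It occurred in 128 of 32851 promoters of the same length (0.39%), whereas ATTGG alone occurred in 37.4%. The motif did not occur in the promoters of H2-DMa, Cd80 and Cd274. The promoter table used holds no entry for H2-Ab1, Cd74, Ciita and Cd86.

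In the mm9 annotation, 5 of the genes lay in the class II region of chromosome 17: H2-DMa at 34272127 to 34276046, H2-DMb1 at 34290017 to 34297168, H2-Ab1 at 34400154 to 34406363, H2-Aa at 34406276 to 34424772 and H2-Eb1 at 34442828 to 34453144. H2-Aa was annotated on the minus strand and the others on the plus strand, and the ends of H2-Aa and H2-Ab1 overlapped by 88 bases. Cd74 lay on chromosome 18 (60963502 to 60972300), Ciita, Cd86 and Cd80 on chromosome 16 (10480237 to 10527657, 36603955 to 36666167 and 38459013 to 38495821) and Cd274 on chromosome 19 (29441945 to 29462585). Reads in the overlap of H2-Aa and H2-Ab1 could be split between the genes in a way that was not stated, and the same holds for reads shared by H2-DMb1 and its close paralog H2-DMb2.

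Assigned counts ranged from 4982950 to 26657729 per library, with a median of 14853861, so that 3 counts equalled between 0.113 and 0.602 CPM (counts scaled to the assigned reads of a library). Replicates 3 and 4 of the Th2 cells differed by little more than counting noise in both genotypes, with a mean chi-square per gene of 1.51 for WT and 1.34 for TDG iKO where every other replicate pair had 10.9 to 218, and were summed, giving 3 replicates a group. Tdg had 0 to 7 counts in every library, WT included, and Tet2 was not lower in the TET iTKO BMDMs, so these counts did not check the deletions. Xist, looked at after the values were seen, had 0 counts in the 0 h and 6 h libraries of WT replicate 1 of the Tet cohort and 17088 to 22210 in the other 6 libraries of that cohort, and 16 counts in TDG iKO replicate 1 of the Th2 cells. The tests of the 10 genes that involve these libraries are also given with 1 of them left out at a time. The 0 h and 6 h libraries of WT replicate 1 were never left out together, so each test of KLA kept the other. Of 7 macrophage markers, 7 had counts in each BMDM group, at 21410 to 28790 CPM in sum. The Th2 libraries held 2410 to 3420 CPM of T cell markers. Macrophage markers summed to 17.65 to 60.31 CPM in the WT and 9.88 to 55.85 CPM in the TDG iKO Th2 libraries. Csf1r and Mertk were at 0 there, and the other 5 had counts in both Th2 groups.

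Across the 10 groups, the 4 class II chain and invariant chain genes had the same upper order, with the WT BMDMs of the Tet cohort above all other groups. Mean H2-Aa was 460.0 CPM there at 0 h and 428 CPM at 6 h, between 189 and 225 CPM in the 6 other BMDM groups, and 0.288 and 0.204 CPM in TDG iKO and WT Th2 cells. Neighbouring groups in that order had overlapping libraries in 7 of 9 steps, and the steps without overlap were below the Tet-cohort WT groups and between BMDMs and Th2 cells. Ciita had another order, highest in TET iTKO at 6 h (9.29 CPM), then the other 6 h groups (3.46 to 4.84 CPM), then the 0 h BMDMs (0.724 to 2.35 CPM) and last the Th2 cells (0.199 and 0.339 CPM), with overlap in 5 of 9 steps. Cd86 was also highest in TET iTKO, at 41.4 CPM at 6 h and 34.4 CPM at 0 h. Cd274 was ordered by KLA, with the 4 groups at 6 h (750.0 to 1053 CPM) above the 4 at 0 h (120 to 303 CPM) and both above Th2 cells (27.7 and 30.6 CPM).

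**Figure D1:**
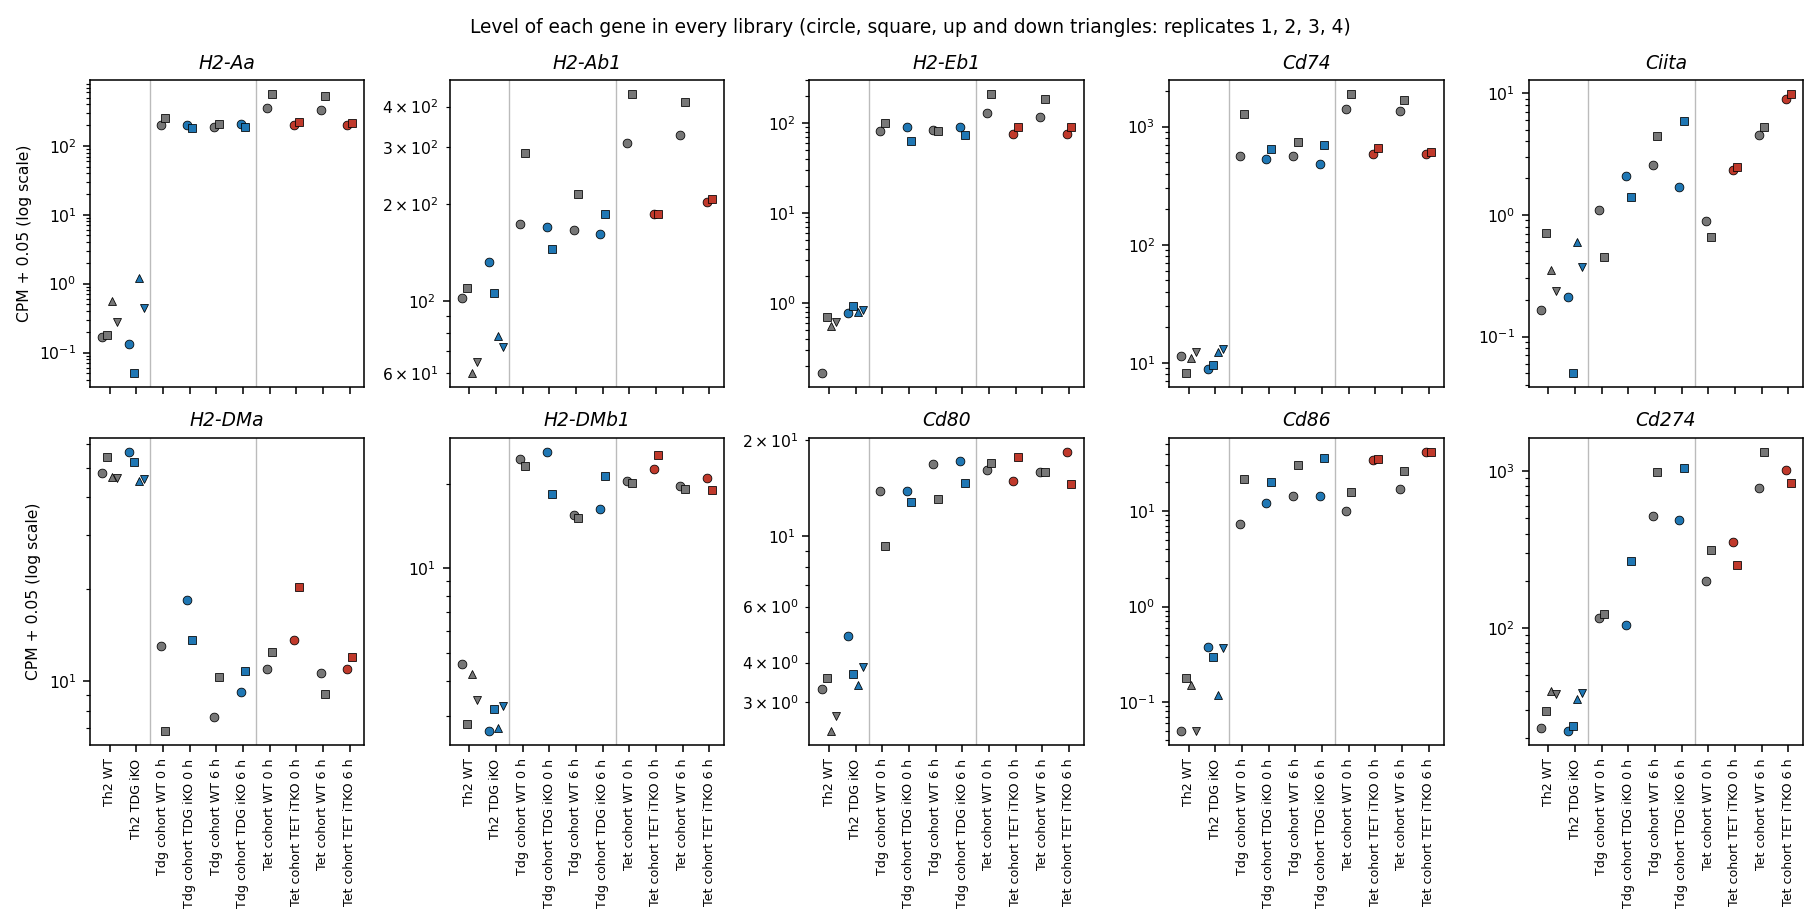
Level of each of the 10 genes in each of the 24 libraries, in CPM plus 0.05 on a log axis, with 1 symbol a library, symbol shape for the replicate number, and grey, blue and red for WT, TDG iKO and TET iTKO. The class II chain genes and Cd74 sit highest in the WT BMDMs of the Tet cohort, Cd274 sits higher at 6 h of KLA, and H2-DMa is the gene of the 10 whose points are highest in Th2 cells.

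The comparison of TET iTKO with WT BMDMs asked whether the loss of the TET enzymes altered expression in macrophages before and after KLA. In TET iTKO BMDMs at 0 h, Cd74, H2-Ab1 and H2-Aa were lower and Ciita and Cd86 were higher, 5 of the 10 genes past an adjusted p of 0.05, against 7.5% of all 12200 genes tested (2 higher against 4.38%, 3 lower against 3.12%). At 6 h of KLA, Cd74, H2-Ab1 and H2-Aa were again lower and Cd86 higher, 4 of 10 against 6.58% of 11634 genes (1 higher against 3.24%, 3 lower against 3.34%). With edgeR 6 of the 10 passed at 0 h and 3 at 6 h, against 6.01% and 4.68% of all genes. The median log2 fold change over the 10 genes was 0.06 at 0 h and -0.15 at 6 h, beside 0.0083 and -0.0021 over all genes tested. The share of all genes whose libraries did not overlap between the genotypes was not computed. A lack of overlap given below therefore cannot be read as particular to these genes. Changes in bulk RNA cannot tell fewer cells that express a gene from less RNA in each cell, and the p-values measure the spread between these samples, since the sources used here do not say how the replicates arose beyond a number in the table names that differs between the replicates of the Tet cohort.

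Cd74, which encodes the invariant chain, had the largest decrease of the 10 genes at both times. At 0 h it had 1402 and 1880 CPM in the WT libraries and 587 and 664 CPM in the TET iTKO libraries. At 6 h the WT libraries had 1357 and 1682 CPM and the TET iTKO libraries 583 and 609 CPM. Every TET iTKO library was thus below every WT library at both times. The fall was 2.72-fold at 0 h (log2 fold change -1.44, SE 0.15, n = 2 against 2, adjusted p = 7.03e-20) and 2.68-fold at 6 h (log2 fold change -1.42, SE 0.15, adjusted p = 5.05e-19), and it passed the threshold under every alternative and with any single library left out.

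H2-Ab1, the beta chain of the I-A molecule, had 308 and 437 CPM in WT and 186 and 187 CPM in TET iTKO at 0 h. At 6 h these values were 327 and 412 CPM in WT and 203 and 208 CPM in TET iTKO. The TET iTKO libraries lay close together and below both WT libraries at each time. H2-Ab1 fell 2.07-fold at 0 h (log2 fold change -1.05, SE 0.16, adjusted p = 4.80e-09) and 1.89-fold at 6 h (-0.92, SE 0.16, adjusted p = 8.19e-07), also with any single library left out.

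H2-Aa, the alpha chain of the same molecule, was measured at 359 and 561 CPM in WT and at 200.2 and 224 CPM in TET iTKO at 0 h. At 6 h it was at 328 and 528 CPM in WT and at 202 and 212 CPM in TET iTKO. The 2 WT libraries differed from each other more than the 2 TET iTKO libraries did, and the genotypes did not overlap. H2-Aa fell 2.25-fold at 0 h (log2 fold change -1.17, SE 0.35, adjusted p = 0.0162) and 2.19-fold at 6 h (-1.13, SE 0.35, adjusted p = 0.0248). This call was lost at 0 h without TET iTKO replicate 1 (adjusted p = 0.212) or replicate 2 (0.250), and at 6 h without TET iTKO replicate 1 (0.248) or 2 (0.272) or without WT replicate 2 (log2 fold change -0.70, adjusted p = 0.274).

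H2-Eb1 encodes the beta chain of the I-E molecule. The I-E alpha chain gene, annotated as a pseudogene (H2-Ea-ps), had 0 counts in all 10 groups, and whether an I-E molecule formed was not measured. H2-Eb1 had 130.0 and 210.2 CPM in WT and 76.5 and 90.8 CPM in TET iTKO at 0 h. At 6 h it had 118 and 187 CPM in WT and 75.0 and 91.2 CPM in TET iTKO. The genotypes again did not overlap at either time. The log2 fold change was -1.08 at 0 h (SE 0.37, adjusted p = 0.0517) and -0.95 at 6 h (SE 0.37, adjusted p = 0.119), so that neither passed the threshold. At 0 h it passed under edgeR (adjusted p = 0.0343), with TMM factors (0.0459), with a filter on low counts (0.0461) and without WT replicate 1 (-1.39, adjusted p = 2.19e-06), and at 6 h without WT replicate 1 (-1.27, adjusted p = 0.0319). Without WT replicate 2 the value moved the other way, to -0.68 at 0 h (adjusted p = 0.103) and -0.54 at 6 h (adjusted p = 0.588). It passed at both times with the replicate number as a block, where 8.69% and 7.04% of all genes passed. Same-numbered libraries of the 2 genotypes share only a number, however (correlation across genes 0.023 at 0 h and 0.051 at 6 h).

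**Figure D2:**
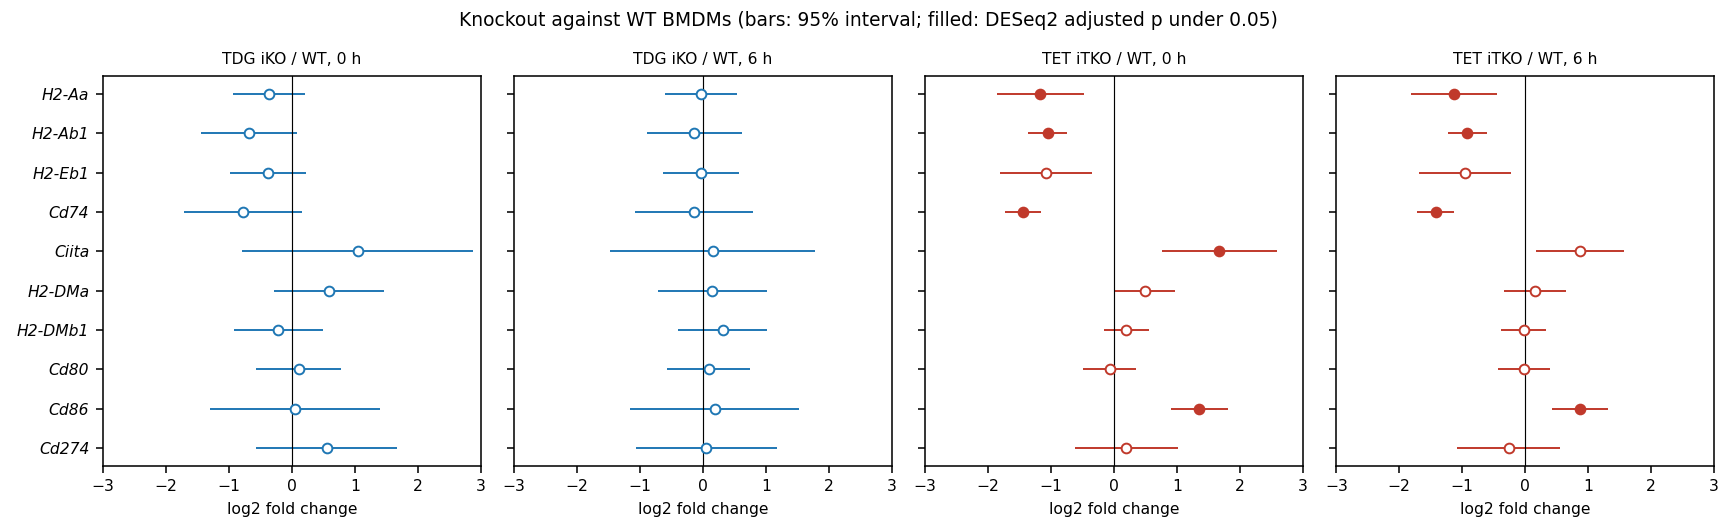
Log2 fold change of each of the 10 genes in knockout against WT BMDMs, with 95% intervals, for TDG iKO (blue) and TET iTKO (red) at 0 h and at 6 h of KLA, where filled points passed a DESeq2 adjusted p of 0.05. In TET iTKO, Cd74, H2-Ab1, H2-Aa and H2-Eb1 sit at -0.92 or below and Cd86 and Ciita at 0.87 or above at both times. Of these, H2-Eb1 is open at both times and Ciita at 6 h. No point is filled for TDG iKO.

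Ciita was low in unstimulated BMDMs of either genotype. It had 13 and 13 counts in the WT libraries at 0 h (0.844 and 0.605 CPM) and 30 and 42 counts in the TET iTKO libraries (2.28 and 2.42 CPM). At 6 h it had 75 and 86 counts in WT (4.46 and 5.22 CPM) and 134 and 190 counts in TET iTKO (8.85 and 9.72 CPM). The TET iTKO libraries were the higher at each time. Ciita rose 3.18-fold at 0 h (log2 fold change 1.67, SE 0.46, adjusted p = 0.00757) and had a log2 fold change of 0.87 at 6 h (SE 0.35, adjusted p = 0.141). The 0 h call was lost without TET iTKO replicate 2 (adjusted p = 0.130) or WT replicate 2 (0.228). The direction for Ciita was opposite to that for Cd74, H2-Ab1 and H2-Aa in the same libraries.

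**Figure D3:**
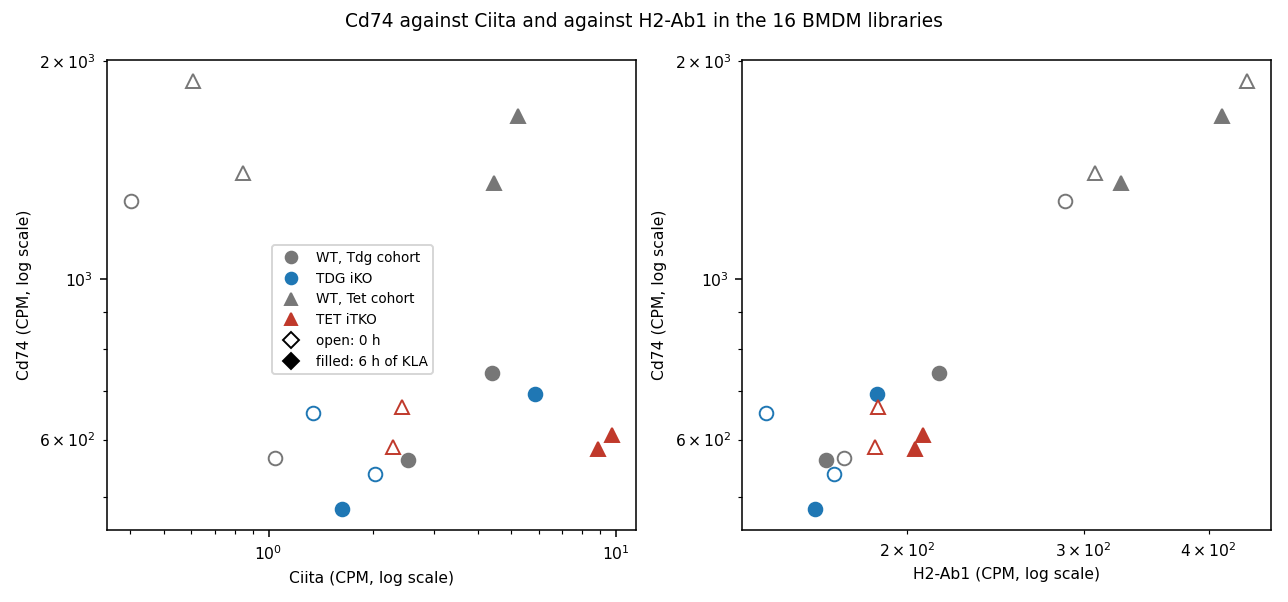
Cd74 against Ciita (left) and against H2-Ab1 (right) in the 16 BMDM libraries, all in CPM on log axes, with circles for the Tdg cohort, triangles for the Tet cohort, open symbols for 0 h, filled symbols for 6 h of KLA, and grey, blue and red for WT, TDG iKO and TET iTKO. The TET iTKO libraries lie at high Ciita and low Cd74 against the WT libraries of their cohort at the same time, whereas Cd74 and H2-Ab1 lie along a line.

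The H2-DM genes, whose product exchanges the invariant chain fragment for a peptide, were not called. H2-DMa had 10.9 and 12.4 CPM in WT and 13.6 and 20.2 CPM in TET iTKO at 0 h (log2 fold change 0.49, SE 0.25, adjusted p = 0.298), and 10.6 and 9.03 CPM in WT and 10.9 and 11.9 CPM in TET iTKO at 6 h (0.15, SE 0.25, adjusted p = 0.876). H2-DMb1 had 20.4 and 20.0 CPM in WT and 22.4 and 25.3 CPM in TET iTKO at 0 h (0.19, SE 0.18, adjusted p = 0.732), and 19.6 and 19.04 CPM in WT and 20.9 and 18.9 CPM in TET iTKO at 6 h (-0.03, SE 0.18, adjusted p = 0.978). The 95% intervals ran from -0.17 to 0.55 for H2-DMb1 at 0 h and from -0.39 to 0.33 at 6 h, which excludes a decrease of the size estimated for Cd74. H2-DMb1 was thus not called where H2-Aa was, and both promoters shown above hold the motif with a spacer of 28 bases. The part of the motif in these results was not tested.

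Of the CD28 ligands, Cd86 rose in TET iTKO BMDMs and Cd80 was not called. Cd86 had 10.1 and 15.7 CPM in WT and 34.1 and 34.6 CPM in TET iTKO at 0 h, and 17.1 and 25.95 CPM in WT and 41.6 and 41.2 CPM in TET iTKO at 6 h. The TET iTKO libraries were close to each other and above both WT libraries at each time, and the unstimulated TET iTKO libraries were also above the WT libraries at 6 h of KLA. Cd86 rose 2.56-fold at 0 h (log2 fold change 1.35, SE 0.23, adjusted p = 6.54e-07), also with any single library left out, and 1.83-fold at 6 h (0.87, SE 0.23, adjusted p = 0.00435). The 6 h call was lost under edgeR (adjusted p = 0.0564), without WT replicate 1 (0.57, adjusted p = 0.270), and without TET iTKO replicate 1 (0.0831) or 2 (0.127). Cd80 was between 14.6 and 18.4 CPM in all 8 libraries, with log2 fold changes of -0.07 (SE 0.21, adjusted p = 0.954) at 0 h and -0.01 (SE 0.21, adjusted p = 0.991) at 6 h.

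Cd274, which encodes the ligand of PD-1, was measured at 198 and 313 CPM in WT and at 353 and 253 CPM in TET iTKO at 0 h, and at 782 and 1325 CPM in WT and 1009 and 842 CPM in TET iTKO at 6 h. The genotypes overlapped at both times. The log2 fold changes were 0.19 (SE 0.42, adjusted p = 0.935) and -0.27 (SE 0.42, adjusted p = 0.865), with 95% intervals from -0.63 to 1.01 and from -1.09 to 0.56.

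Without WT replicate 1, the library with no Xist counts, 6 of the 10 genes passed at 0 h, against 3.6% of all genes in that fit, and 4 at 6 h, against 3.67%. At 0 h these were Cd74 (log2 fold change -1.65), H2-Aa (-1.47), H2-Ab1 (-1.29) and H2-Eb1 (-1.39), all lower, and Ciita (1.90, adjusted p = 0.0468) and Cd86 (1.07, adjusted p = 0.00384), both higher. At 6 h they were Cd74 (-1.60), H2-Aa (-1.46), H2-Ab1 (-1.11) and H2-Eb1 (-1.27). In these fits the remaining WT library was assumed to vary like the libraries of the other groups.

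Other genes of class II presentation and costimulation were described from lists. Over all genes tested, 4.38% were called higher and 3.12% lower in TET iTKO at 0 h, and 3.24% and 3.34% at 6 h. Of 6 tested genes of antigen processing and class II turnover, 0 were higher and 3 lower at 0 h, namely the cathepsins that degrade antigen and the invariant chain, Ctss (log2 fold change -0.36), Ctsl (-0.48) and Ctsb (-0.38), and the median of the list was -0.33. At 6 h 4 of 6 were lower, Ctss (-0.45), Ctsl (-0.63), Ctsb (-0.38) and March1, a ubiquitin ligase that targets class II molecules and CD86 for degradation (-0.40). Of 11 other costimulatory and coinhibitory ligands, 3 were higher at 0 h, Tnfsf4 (OX40 ligand, 2.56), Cd83 (1.09) and Icam1 (0.39), and Cd48 was lower (-0.40). At 6 h Cd83 was higher (1.33) and Cd48 lower (-0.55). Cd83 is known for protecting class II molecules and CD86 from March1. With edgeR the cathepsins passed at both times and March1 did not, and of the ligands Tnfsf4 at 0 h and Cd48 at 6 h passed, so that 1 of 4 and 1 of 2 ligand calls were kept. Without WT replicate 1, 0 of the 3 cathepsin calls and 0 of the 4 ligand calls were kept at 0 h, and at 6 h all 4 calls of antigen processing and turnover and that of Cd48 were.

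Genes that act on class II promoters or upstream of Ciita were described next. None of the 6 tested promoter factors passed at either time (median 0.16 and 0.14), with 1 at an unadjusted p under 0.05 at 0 h and 0 at 6 h, and 0 called by edgeR at both times. Of 5 tested genes of the interferon gamma pathway, 1 was higher, the receptor kinase gene Jak2, at 0 h (0.60, adjusted p = 6.49e-04) and at 6 h (0.42, adjusted p = 0.0360). With edgeR Jak2 passed at 0 h and not at 6 h (adjusted p = 0.127), and without WT replicate 1 it passed at neither time (adjusted p = 0.0603 and 0.569).

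Other class II genes had higher estimates in TET iTKO, at few counts. Of the 4 tested (H2-Oa, H2-Ob, H2-Eb2 and H2-DMb2), 0 passed at either time, with 1 at an unadjusted p under 0.05 at each time and 0 called by edgeR. The median log2 fold change of these 4 genes was 2.23 at 0 h and 1.68 at 6 h. Their summed level was 1.10 to 1.49 CPM in WT and 2.28 to 6.90 CPM in TET iTKO at 0 h, and 0.832 to 1.52 CPM in WT and 3.50 to 5.42 CPM in TET iTKO at 6 h, so that the genotypes did not overlap. The sign was opposite to that of the class II chain genes.

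Markers of other cells also differed between the Tet-cohort genotypes, and their part in the class II results was not tested. Of 5 B cell markers, 3 were higher in TET iTKO at 0 h (Cd79a, Cd79b and Ms4a1) and 1 at 6 h (Ms4a1). The summed level of these 5 genes was 1.49 to 1.95 CPM in WT and 5.86 to 22.4 CPM in TET iTKO at 0 h, and 1.72 to 2.49 CPM in WT and 4.10 to 19.6 CPM in TET iTKO at 6 h. With edgeR Cd79a and Cd79b passed at 0 h and none at 6 h, and without WT replicate 1 the call of Cd79b at 0 h was the only one of these kept. B cells and dendritic cells are known to express class II genes at high levels. The B cell markers were higher in the same libraries in which the class II chain genes and Cd74 were lower and Ciita, Cd86 and the summed level of the other class II genes were higher. Of 7 dendritic cell markers 4 were tested at 0 h, with a median log2 fold change of 2.73 and 3 at an unadjusted DESeq2 p under 0.05. At 6 h 2 were tested, with a median of 1.96 and 2 at an unadjusted DESeq2 p under 0.05. Of the dendritic cell markers, Ccr7 was higher at both times (with edgeR and without WT replicate 1 at neither), Cd209a was at 0 in all 8 libraries, and the sum of the 7 genes was 8.12 to 10.1 CPM in WT and 5.86 to 11.6 CPM in TET iTKO at 0 h and 6.72 to 8.73 CPM and 6.81 to 11.1 CPM at 6 h.

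Myeloid markers differed too. Of 7 macrophage markers, Cd68 (-0.63), Lyz2 (-0.41) and Mertk (-0.60) were lower and Itgam (0.30) higher at 0 h, and Cd68 (-0.63), Lyz2 (-0.48), Mertk (-1.10) and Fcgr1 (-0.46) were lower at 6 h. Their sum was 26190 to 27330 CPM in WT and 23050 to 23120 CPM in TET iTKO at 0 h, and 25480 to 27170 CPM and 21740 to 22420 CPM at 6 h. Of the neutrophil and myeloid progenitor markers, Cd34 (3.92) and S100a8 (1.19) were higher at 0 h, and Cd34 (3.84), Prtn3 (1.76) and S100a8 (0.90) at 6 h. Of these calls, Cd68 and S100a8 were kept at both times with edgeR and without WT replicate 1, Lyz2 at 6 h in both and at 0 h with edgeR, Cd34 at 0 h and Mertk at 6 h with edgeR, and Fcgr1 without WT replicate 1. Itgam and Prtn3 were kept in neither. The sum of that list was 26.9 to 44.7 CPM in WT and 51.7 to 121 CPM in TET iTKO at 0 h, and 29.96 to 30.01 CPM and 52.7 to 87.0 CPM at 6 h.

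The same comparison for TDG called 0 of the 10 genes in BMDMs at 0 h or at 6 h, against 0% of 15026 genes tested at either time, with DESeq2. None of the 10 had an unadjusted p under 0.05 in either comparison, and edgeR called 0 of them. Cd74 had 566 and 1283 CPM in WT and 537 and 652 CPM in TDG iKO at 0 h, and 561 and 742 CPM in WT and 481 and 693 CPM in TDG iKO at 6 h. H2-Ab1 had 173 and 288 CPM in WT and 169 and 145 CPM in TDG iKO at 0 h, and 166 and 215 CPM in WT and 162 and 187 CPM in TDG iKO at 6 h. In both genes WT replicate 2 at 0 h, the library with the fewest counts (4982950), was the highest of the 8. The log2 fold changes at 0 h were -0.77 for Cd74 (95% interval -1.71 to 0.16) and -0.68 for H2-Ab1 (-1.44 to 0.07), and without WT replicate 1, which left that library as the only WT sample at 0 h, they were -1.31 (adjusted p = 0.0425) and -1.08 (adjusted p = 0.0410), in a fit that called 11.3% of all genes. Without WT replicate 2 in turn they were 0.088 for Cd74 and -0.13 for H2-Ab1 (adjusted p = 1 for both, 0.0133% of all genes called).

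H2-Aa in the Tdg cohort was at 198 and 251 CPM in WT and at 198 and 180.2 CPM in TDG iKO at 0 h, and at 187 and 206 CPM in WT and 205 and 185 CPM in TDG iKO at 6 h. Ciita had 11 and 2 counts in WT and 21 and 26 counts in TDG iKO at 0 h, and 23 and 67 counts in WT and 14 and 93 counts in TDG iKO at 6 h. These Ciita counts gave a log2 fold change of 1.05 at 0 h with a 95% interval from -0.79 to 2.88, which covers no change and also the change in TET iTKO. Cd86 had 7.33 and 21.5 CPM in WT and 12.1 and 20.3 CPM in TDG iKO at 0 h, and 14.2 and 30.1 CPM in WT and 14.3 and 35.5 CPM in TDG iKO at 6 h. For Cd86 the replicates of 1 genotype differed more than the genotypes did. Over the 10 genes the log2 fold changes ran from -0.77 to 1.05 at 0 h and from -0.15 to 0.31 at 6 h, and the 95% intervals of all 10 genes at 6 h lay between -1.47 and 1.77.

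The difference between the TET effect and the TDG effect was tested by fitting both cohorts together and subtracting the contrast of TDG iKO with its WT from that of TET iTKO with its WT. None of the 10 genes passed at 0 h, against 0.355% of 10992 genes, and none at 6 h, against 0.0765% of 13075 genes. At 0 h 0 of the 10 had an unadjusted p under 0.05. At 6 h 3 did, H2-Aa (log2 difference -1.09, SE 0.41, adjusted p = 0.801), Cd74 (-1.27, SE 0.56, adjusted p = 1) and H2-Eb1 (-0.90, SE 0.43, adjusted p = 1). edgeR called 0 of the 10 genes at either time, against 0% and 0.00851% of all genes, with 1 at an unadjusted p under 0.05 at 0 h and 3 at 6 h. Cd74, H2-Ab1 and H2-Aa were called lower in TET iTKO and not in TDG iKO, but in this fit the difference between the effects did not pass the threshold. With the replicate number as a block, H2-Aa (-1.05, adjusted p = 0.0490) and Cd74 (-1.22, adjusted p = 0.0156) passed at 6 h, against 0.809% of all genes. Nothing states that these numbers pair the genotypes in either cohort. Without WT replicate 1 of the Tet cohort none of the 10 passed at 0 h (0.165% of all genes) or at 6 h (0.0509%), where H2-Aa had a log2 difference of -1.41 (adjusted p = 0.452) and Cd74 of -1.44 (adjusted p = 1).

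The cohorts differed in the level of the class II genes in their WT cells, which are set side by side here with no test. Cd74 was 1357 to 1880 CPM in the 4 WT libraries of the Tet cohort, 583 to 664 CPM in the 4 TET iTKO libraries, and 481 to 1283 CPM in the 8 libraries of the Tdg cohort. For H2-Aa, H2-Ab1, H2-Eb1 and Cd74 alike, 4 of 4 WT libraries of the Tet cohort were above all 8 libraries of the Tdg cohort, and 4 of 4 TET iTKO libraries were within the range of the Tdg cohort. H2-Aa was 180.2 to 251 CPM in the Tdg cohort, 328 to 561 CPM in the WT and 200.2 to 224 CPM in the TET iTKO libraries of the Tet cohort. Cd86 had no such pattern, with 7.33 to 35.5 CPM in the Tdg cohort, 10.1 to 25.95 CPM in the WT and 34.1 to 41.6 CPM in the TET iTKO libraries of the Tet cohort. The share of all genes with such a pattern was not computed, so it cannot be read as particular to these genes. WT mouse, cohort and library preparation cannot be told apart in this difference of levels.

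The comparison of 6 h with 0 h asked how KLA changed these genes within a genotype. Cd274 rose in all 4 genotype groups, Ciita rose in both groups of the Tet cohort, and Cd86 rose in the WT of the Tet cohort. The counts called were 1 of 10 in WT of the Tdg cohort (8.6% of all genes), 1 of 10 in TDG iKO (7.08%), 3 of 10 in WT of the Tet cohort (24.1%) and 2 of 10 in TET iTKO (24.4%). All were higher at 6 h, in which direction 5.29%, 4.27%, 13.1% and 12.8% of all genes were called. H2-Aa, H2-Ab1, H2-Eb1 and Cd74 were not called in any of the 4, with log2 fold changes between -0.44 and 0.35. With the paired fit of the Tet cohort described below, H2-Ab1 rose in TET iTKO (0.24, adjusted p = 0.0188, 25.9% of all genes called).

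**Figure D4:**
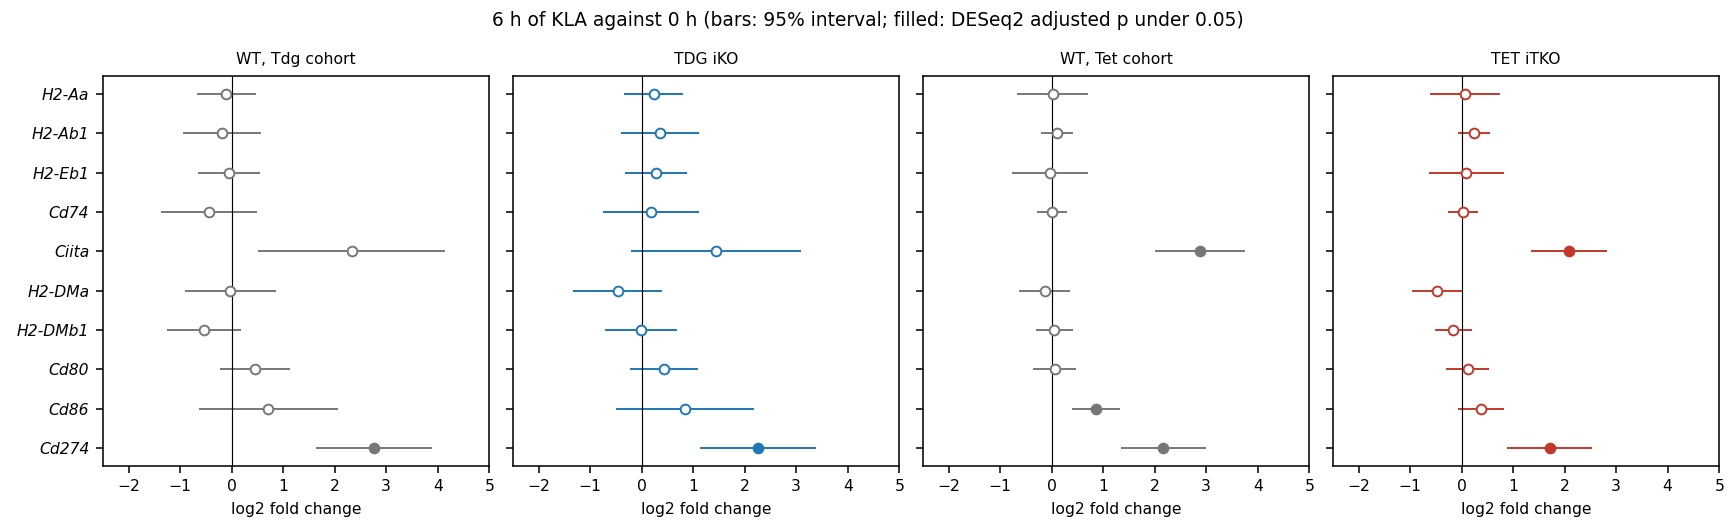
Log2 fold change of each of the 10 genes from 0 h to 6 h of KLA, with 95% intervals, in the WT and knockout BMDMs of each cohort (grey WT, blue TDG iKO, red TET iTKO), where filled points passed a DESeq2 adjusted p of 0.05. Cd274 is filled in all 4 panels at 1.71 to 2.76, Ciita is filled in the Tet cohort, and the class II chain genes and Cd74 sit near 0.

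Cd274 went from 116 and 123 CPM at 0 h to 520 and 980.4 CPM at 6 h in WT of the Tdg cohort and from 104 and 267 CPM to 488 and 1053 CPM in TDG iKO. No library at 6 h overlapped the libraries at 0 h of the same genotype in either cohort. The rise was 6.78-fold in WT of the Tdg cohort (log2 fold change 2.76, SE 0.57, adjusted p = 5.94e-05), 4.79-fold in TDG iKO (2.26, SE 0.57, adjusted p = 0.00214), 4.5-fold in WT of the Tet cohort (2.17, SE 0.42, adjusted p = 2.53e-06) and 3.27-fold in TET iTKO (1.71, SE 0.42, adjusted p = 3.60e-04). In the Tdg cohort it did not pass under edgeR (adjusted p = 0.0658 in WT and 0.136 in TDG iKO, with 3.71% and 3.11% of all genes called), without WT replicate 2 at 6 h (0.0588), or without TDG iKO replicate 1 at 0 h (0.115) or replicate 2 at 6 h (0.289). In WT of the Tet cohort it passed without WT replicate 1 at 0 h (1.87, adjusted p = 0.00138) and at 6 h (2.53, adjusted p = 3.48e-08), in fits that called 16.2% and 21.2% of all genes.

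Ciita rose 7.39-fold in WT of the Tet cohort (log2 fold change 2.88, SE 0.45, adjusted p = 1.61e-09) and 4.24-fold in TET iTKO (2.09, SE 0.38, adjusted p = 4.09e-07), from the counts given above. Without WT replicate 1 the rise in WT was 3.11 (0 h library left out, adjusted p = 2.27e-06) and 3.03 (6 h library left out, adjusted p = 5.22e-07). In the Tdg cohort, where it had 2 to 26 counts at 0 h, the log2 fold changes were 2.33 in WT (SE 0.93, adjusted p = 0.105) and 1.44 in TDG iKO (SE 0.84, adjusted p = 0.488). Cd86 rose 1.81-fold in WT of the Tet cohort (0.86, SE 0.24, adjusted p = 0.00181), a call that was lost without WT replicate 1 at 0 h (adjusted p = 0.157) or WT replicate 2 at 6 h (0.248). It had log2 fold changes of 0.37 in TET iTKO (adjusted p = 0.261), 0.71 in WT of the Tdg cohort (adjusted p = 0.611) and 0.84 in TDG iKO (adjusted p = 0.781). Cd80, H2-DMa and H2-DMb1 had log2 fold changes between -0.54 and 0.46 in the 4 groups and were not called.

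The KLA response itself was compared between genotypes as an interaction. None of the 10 genes passed for TDG iKO minus WT, against 0% of 15026 genes, or for TET iTKO minus WT, against 0.426% of 12200 genes. None had an unadjusted p under 0.05 in either, and edgeR called 0 in both, against 0% and 0.00874% of all genes. The differences of the log2 responses were -0.80 for Ciita (SE 0.58), -0.48 for Cd86 (SE 0.33) and -0.46 for Cd274 (SE 0.59) in TET iTKO. Without WT replicate 1, at 0 h or at 6 h, none of the 10 passed for TET iTKO minus WT (0.156% and 3.64% of all genes), and 5 of the 10 were not given an adjusted p in the fit without the 6 h library. The deposited table names give the same number to the 0 h and 6 h libraries of each replicate of the Tet cohort and another number to each other replicate, so that KLA was also tested with this number as a block. With this pairing the smaller response of Cd274 in TET iTKO passed (log2 difference -0.42, adjusted p = 0.0272, 2.48% of all genes).

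Costimulatory ligands beyond the 10 genes responded to KLA in each group. Of 11 tested, 4 were higher in WT of the Tdg cohort and 4 in TDG iKO. In the Tet cohort 7 were higher and 1 lower in WT, and 6 were higher and 1 lower in TET iTKO. Over all genes, 5.29%, 4.27%, 13.1% and 12.8% were called higher in these groups in that order. Of the 8 calls in WT of the Tet cohort, 5 were kept without WT replicate 1 at 0 h and 7 without it at 6 h, Cd40, Icam1 and Icosl among them. Cd40, the receptor through which helper T cells activate macrophages, rose by log2 fold changes of 3.47, 4.18, 3.03 and 3.20 in the order just given. Icam1, an adhesion ligand of T cells, rose by 3.04, 3.12, 2.84 and 2.76, and Icosl, the ligand of ICOS, by 1.73, 1.89, 1.89 and 2.02. Jak2 rose by 2.85, 2.62, 2.77 and 2.58 and March1 by 1.69, 1.43, 1.62 and 0.93. Among promoter factors, Rfx5, a subunit of the complex on the X box, was higher in WT (1.33) and in TET iTKO (0.83) of the Tet cohort.

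In Th2 cells the comparison of TDG iKO with WT called 0 of the 10 genes, against 0% of 15826 genes tested, with 0 at an unadjusted p under 0.05 and 0 called by edgeR. H2-Ab1 was at 102, 110, 59.9 and 64.7 CPM in the 4 WT libraries and at 132, 106, 78.0 and 71.9 CPM in the 4 TDG iKO libraries. H2-DMa was at 47.9, 54.3, 46.7 and 46.1 CPM in WT and 56.3, 52.0, 45.2 and 45.9 CPM in TDG iKO. Both genes overlapped between the genotypes, and for H2-Ab1 replicates 3 and 4 were lower in either genotype. The log2 fold changes were 0.24 for H2-Ab1 (95% interval -0.45 to 0.93), 0.09 for H2-DMa (-0.31 to 0.50), 0.02 for Cd74 (-0.51 to 0.56) and -0.11 for Cd274. Without TDG iKO replicate 1 the count was also 0 (0% of 15746 genes). Nothing states that the replicate numbers pair the Th2 samples, and the main test treated them as unpaired. Same-numbered samples did deviate together (correlation across genes 0.478, 0.652 and 0.898). With the replicate number as a block, none of the 6 genes left after filtering of low counts passed (0.147% of 10188 genes).

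Cd86, H2-Aa, H2-Eb1 and Ciita were at or near the detection limit in Th2 cells. Cd86 had 0, 1, 2 and 0 counts in the WT libraries and 4, 2, 1 and 4 in the TDG iKO libraries. H2-Aa had 1, 1, 10 and 6 counts in WT and 1, 0, 17 and 5 in TDG iKO. H2-Aa exceeded 3 counts in 4 of 8 Th2 libraries, H2-Eb1 in 7, Ciita in 5 and Cd86 in 2, whereas the other 6 genes exceeded 3 counts in all 8. The log2 fold changes were 2.33 for Cd86 (95% interval -0.58 to 5.24), 0.86 for H2-Eb1 (-0.65 to 2.36), 0.59 for H2-Aa (-2.47 to 3.64) and -0.53 for Ciita (-3.15 to 2.09). With replicates 3 and 4 summed, normalised counts of Cd86 and H2-Eb1 did not overlap between the genotypes and were the higher in TDG iKO. Single libraries of Cd86 did overlap, with 0.0686 CPM in TDG iKO replicate 3 and 0.131 CPM in WT replicate 2. The share of all genes without overlap was not computed. The intervals of all 4 genes cover no change as well as changes of over 4-fold.

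WT Th2 cells were set against WT BMDMs at 0 h to show which cells hold the RNA of each gene, although cell type, culture and animals differ together. Of the 10 genes, 9 passed, against 54.8% of all 13913 genes tested, 8 lower (25.8% of all genes) and 1 higher (29%) in Th2 cells. Without WT replicate 1 of the Tet cohort the same counts were called, 8 lower and 1 higher, against 50.1% of all genes. The median log2 fold change over all genes was 0.13 with the main scaling and 0.03 with TMM factors. H2-DMa was higher in Th2 cells, at 46.1 to 54.3 CPM against 6.82 to 12.9 CPM in the 4 BMDM libraries (3.53-fold, log2 fold change 1.82, SE 0.26, adjusted p = 8.64e-12). Its partner H2-DMb1 was lower, at 2.75 to 4.53 CPM against 20.0 to 24.4 CPM (7.68-fold, log2 fold change -2.94, SE 0.28, adjusted p = 5.91e-24). The log2 ratio of H2-DMa to H2-DMb1 was 3.41 to 4.44 in the 8 Th2 libraries and -1.76 to -0.32 in the 16 BMDM libraries.

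The chains of the I-A molecule were uneven in Th2 cells as well. H2-Ab1 was 4.24-fold lower in Th2 cells than in BMDMs (log2 fold change -2.09, SE 0.37, adjusted p = 8.51e-08). H2-Aa had 18 counts in all WT Th2 libraries together and 20928 in the 4 BMDM libraries, a ratio of CPM of 1389 (95% counting interval 879 to 2344), and H2-Eb1 a ratio of 304 (214 to 447). Per kilobase of exons, H2-Ab1 was at 36.4 to 66.7 CPM and H2-Aa at 0.0584 to 0.256 CPM in WT Th2 cells, against 105 to 266 CPM and 99.9 to 282 CPM in the unstimulated WT BMDMs. The log2 ratio of H2-Aa to H2-Ab1 was -8.17 to -6.06 in the 4 Th2 libraries with over 3 counts of H2-Aa, and -0.20 to 0.36 in the 16 BMDM libraries. Part of the H2-Ab1 count may come from reads in the 88 shared bases, which was not tested. Cd74 was 159-fold lower (log2 fold change -7.31, SE 0.41, adjusted p = 1.94e-69), at 8.11 to 12.2 CPM in WT Th2 libraries.

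Of the ligands, Cd86 had 3 counts in all WT Th2 libraries together and 677 in the 4 BMDM libraries, a ratio of CPM of 269.6 (95% counting interval 91.9 to 1311). Cd274 was 7.92-fold lower in Th2 cells (log2 fold change -2.99, SE 0.39, adjusted p = 1.98e-13) at 23.2 to 39.9 CPM, and Cd80 5.97-fold lower (-2.58, SE 0.33, adjusted p = 4.53e-14) at 2.39 to 3.53 CPM. Ciita had 17 counts in all WT Th2 libraries together and a log2 fold change of -1.60 (SE 0.88, adjusted p = 0.114), which passed when replicates 3 and 4 were kept separate (-1.70, adjusted p = 0.0397). Of 4 other class II genes tested, 3 were higher in Th2 cells, against 29% of all genes. H2-Oa and H2-Ob, whose products form the inhibitor of H2-DM, had 150 to 694 and 16 to 256 counts in the WT Th2 libraries and at most 3 and 11 in the BMDM libraries, and H2-DMb2, the paralog of H2-DMb1, had 41 to 74 and 0 to 17. H2-Eb2 was lower, at 0 counts in the WT Th2 libraries and 0 to 10 in the BMDM libraries. Of 9 receptors for the ligands, 8 were higher in Th2 cells (29% of all genes), among them Cd28 (log2 fold change 4.03) and Ctla4, which was at 0 in the BMDM libraries. Of 7 genes of antigen processing and turnover 6 were lower (25.8% of all genes), among them Ctss (-7.75) and Ctsl (-9.02).

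**Figure D5:**
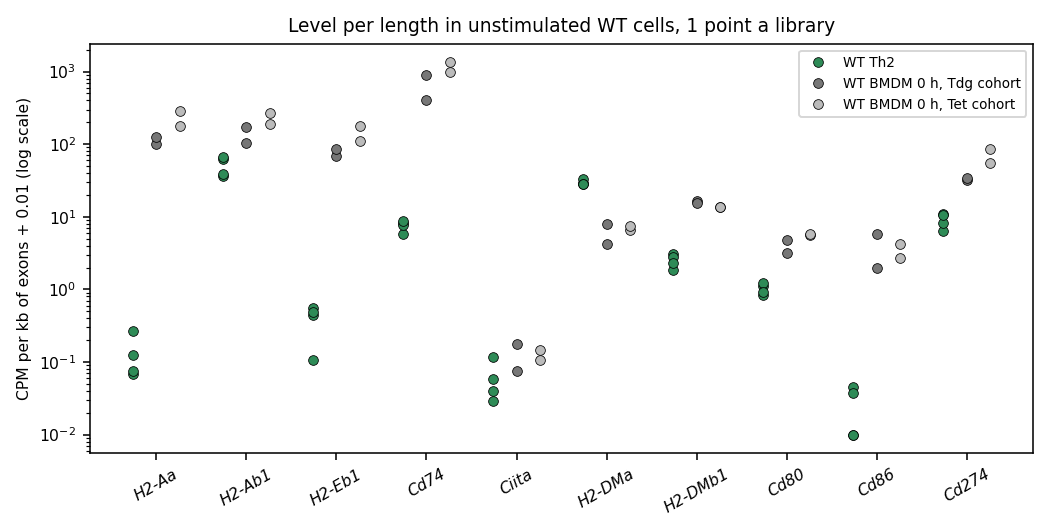
Level of the 10 genes per length in unstimulated WT cells, in CPM per kilobase of exons plus 0.01 on a log axis, with 1 point a library for Th2 cells (green) and for the BMDMs of the Tdg cohort (dark grey) and Tet cohort (light grey). H2-DMa is the gene whose Th2 points lie above the BMDM points, and H2-Aa, H2-Eb1, Cd86 and Cd74 have the widest gaps in the other direction.

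Within the 16 BMDM libraries the class II chain genes varied together. Correlations (Pearson, log2 of normalised counts) were taken against 9474 genes and are descriptions over libraries that share cohort, genotype and time, with no test. The genes most like H2-Aa were H2-Eb1 (r = 0.977), H2-Ab1 (0.952) and Cd74 (0.930), and the gene most like H2-Ab1 was Cd74 (0.961). Cd86 was most like the class I genes H2-T10 (0.930), H2-Q5 (0.922) and H2-Q4 (0.919), and its correlation with the class II chains and Cd74 was between -0.077 and 0.117. Cd274 was most like Slc25a37 (0.990), Sqstm1 (0.983) and Nos2 (0.982), and its correlation with Cd86 was 0.677. H2-DMa and H2-DMb1 had a correlation of 0.376 with each other and between -0.317 and 0.151 with the class II chains and Cd74. Ciita had a mean normalised count under 50 and was not included.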

How the data were processed

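Per the labels and the study's methods, polyA+ RNA was made into directional paired-end libraries and aligned to mm9 by HISAT2, and the authors counted reads per gene with HTSeq. The deposited values were raw counts for 23420 symbols and 5 tallies. The tallies were left out. Annotation, strand setting and the instrument of each library were not given in the sources used here. CPM was computed from assigned counts.

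The main test was DESeq2 1.42.0 in R 4.3.3 (Wald test, Benjamini-Hochberg adjusted p under 0.05 over all genes), following the study's use of DESeq2. Each BMDM cohort was fitted as 8 libraries, and Th2 cells as 3 against 3. Alternatives were edgeR 4.0.16 (quasi-likelihood test, TMM), TMM factors, a filter of 10 counts in 2 libraries, the replicate block, and leaving out each replicate. Scripts were tested on simulated data. The 10 genes and all lists were chosen with earlier results of these data known. From the lists, up to 4 called genes per comparison with the largest absolute change were named if their mean normalised count reached 50, and others after their values were seen. Gene positions are from the mm9 annotation and promoters from RefSeq on GRCm38.p6. The floor was 3 counts, and intervals on counts cover counting error only.

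Same-numbered libraries deviated together in Th2 cells (correlation across genes 0.478, 0.652 and 0.898 for the 3 replicate numbers), but nothing states that these numbers pair the samples. In the Tet cohort the pairing of 0 h with 6 h comes from numbers in the table names, which the sources used here do not define (0.385 in WT and 0.393 in TET iTKO). The name of the Cre transgene is not reported here.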

Additional observations from a re-analysis of the deposited data

Results flagged for a closer look

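March1, which encodes a ubiquitin ligase that targets class II molecules and CD86 for degradation, responded less to KLA in TET iTKO than in WT BMDMs, by a test of the difference itself (log2 difference -0.69, SE 0.17, DESeq2 adjusted p = 0.0207), where 0.426% of all genes passed. The call was lost with edgeR (-0.69, adjusted p = 0.259, 0.00874% of all genes) and without WT replicate 1 at 0 h (-0.67, adjusted p = 0.355), and kept without WT replicate 1 at 6 h (-0.81, adjusted p = 6.47e-04). It went from between 95.98 and 97.5 CPM at 0 h to between 258 and 290.1 CPM at 6 h in WT (log2 fold change 1.62), and from between 119 and 126 CPM to between 203 and 234 CPM in TET iTKO (0.93). No library at 6 h overlapped those at 0 h in either genotype, and the WT and TET iTKO libraries did not overlap at either time. March1 was chosen after its values were seen.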

How the results depend on the processing

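Over all comparisons, 1424 gene values were recomputed under the alternatives. Of these, 1281 kept their direction and their side of the threshold, 111 changed sign without being called under either setting, 18 lost a call, 14 gained a call and 0 called values reversed. With edgeR, 0 of the 10 genes were called for KLA in WT of the Tdg cohort and 0 in TDG iKO (2 and 1 at an unadjusted p under 0.05), where 3.71% and 3.11% of all genes were called. Leaving out 1 library at a time gave 0 to 2 genes for TDG iKO at 0 h, 0 to 1 for KLA in each group of the Tdg cohort, 3 to 6 for TET iTKO at 0 h and 2 to 4 at 6 h, and the libraries concerned are named beside each result. With 1 library left in a group, that library was assumed to vary like the others.

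With the replicate number as a block, 2 genes passed for the difference between the TET and TDG effects at 6 h, and with the block nested in genotype 1 gene (Cd274) passed for the KLA response of TET iTKO minus WT. H2-Eb1 also passed for TET iTKO against WT with the block, at 0 h (log2 fold change -1.04, adjusted p = 1.26e-10) and 6 h (-0.92, adjusted p = 3.57e-08). Between genotypes of the Tet cohort same-numbered libraries share only a number (correlation 0.023 at 0 h and 0.051 at 6 h), and in the Tdg cohort nothing states that the numbers pair samples (0.335 and 0.772 between genotypes). The block changed no other call of the 10 genes except that of H2-Ab1 for KLA given above. Ciita at 0 h, and Cd86, H2-Aa, H2-Eb1 and Ciita in Th2 cells, are limited by depth. The cause of these differences was not tested.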
